A study of Mus musculus with 6 samples.

Results

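The subunits of the mitochondrial respiratory chain and ATP synthase were compared between lungs of BALB/c mice given PM2.5, airborne particles fine enough to reach the deep lung, and lungs of mice given saline. The members were chosen by gene symbol alone, as the nuclear genes of complexes I to V together with the protein-coding genes of mitochondrial DNA. This gave 97 symbols, with 333 Ensembl transcripts, of the 22158 symbols and 70782 Ensembl transcripts in the deposited table. Of the symbols, 84 are nuclear, with 35 in complex I, 4 in complex II, 9 in complex III, 18 in complex IV and 18 in complex V. The other 13 lie on mitochondrial DNA. *Ndufa4*, once assigned to complex I, was counted with complex IV. The symbol rule also took in *Atp5l-ps1*, a pseudogene by its symbol, and *Atp5s* and *Atp5sl*, which are not structural subunits of ATP synthase.

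The PM2.5 group received 5 mg of PM2.5 per kg of body weight in 50 µl of saline through the trachea, weekly for 8 weeks, and the saline group received 50 µl of saline alone on the same schedule. All mice were of the inbred BALB/c strain, with an age of 9 weeks given in the labels. Each group holds 3 libraries of whole-lung RNA, numbered 2, 3 and 4 in both. Nothing in the labels ties the libraries of a group to separate mice, so the p-values cover only the scatter among these samples, which may be technical.

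The respiratory chain passes electrons from NADH (complex I) and succinate (complex II) through coenzyme Q, complex III and cytochrome c to oxygen at complex IV, and pumps protons out of the mitochondrial matrix on the way. ATP synthase (complex V) lets the protons back and makes ATP. Complexes I, III, IV and V are built from subunits encoded in the nucleus and in mitochondrial DNA, while complex II is encoded in the nucleus alone. Several complex IV subunits come in pairs of isoforms, with a form that is widely expressed and a form kept to heart and skeletal muscle, lung or testis.

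Values are FPKM, a fragment count corrected for transcript length and library size, summed over the Ensembl transcripts of a symbol. Libraries summed to 353805 to 373635 FPKM in the PM2.5 group and 345089 to 388125 FPKM in the saline group over all transcripts. Depth, which the files do not state, was estimated from the steps of low values at 18.8 to 21.9 M fragments in PM2.5 libraries and 20.9 to 22.0 M in saline libraries. At that depth 3 fragments on a 1 kb transcript equal 0.136 to 0.160 FPKM, a floor that covers counting error only. All 10 lung epithelial and all 8 endothelial markers on the lists were tested, with summed levels of 8211 to 11721 FPKM in PM2.5 libraries and 10007 to 18787 FPKM in saline libraries for the epithelial list. PM2.5 replicate 2 stood apart from the other PM2.5 libraries in its markers of heart muscle and fat and in *mt-Nd1*, and results that rest on it are given with and without it.

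Most nuclear-encoded subunits had lower mean levels in PM2.5 lungs, by small amounts, and no subunit passed the test. Of the 97 members, 94 had a mean of at least 0.5 FPKM and were tested with limma on log2(FPKM + 0.5). With the adjusted p threshold of 0.05, 0 of the 94 passed, where 14 of all 14865 tested genes (0.0942%) did. At an unadjusted p under 0.05, 14 subunits were lower with PM2.5 (14.9%), against 7.82% of all tested genes, and 0 were higher, against 3.66%. The lowest adjusted p of any subunit was 0.257 (*Ndufa7*). *Cox8c*, *Atp5l-ps1* and *mt-Nd6* were below the level filter.

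The log2 fold change, PM2.5 over saline, was negative for 84 of the 94 subunits (89.4%), against 56.0% of all tested genes. Its median was -0.20 over the subunits and -0.03 over all tested genes. The split depended on scaling: the negative subunits numbered 75 of 94 after median-ratio scaling, 76 after quantile normalization and 73 after rescaling to the nuclear-encoded sum, with 48.8%, 46.8% and 45.7% of all genes negative. In 14 subunits all 3 PM2.5 libraries lay below all 3 saline libraries (14.9%), a share close to the 11.8% of all tested genes, and in 0 they lay above, against 7.04%. In bulk tissue, fewer cells of a type and less RNA per cell cannot be told apart. Marker sums of endothelium and skeletal muscle were also below without overlap. They were 864 to 947 and 4.003 to 15.9 FPKM in PM2.5 libraries and 1020 to 1074 and 16.7 to 32.8 FPKM in saline libraries. Those of lung epithelium, lung mesenchyme, immune cells, heart muscle and fat overlapped between groups. The median log2 fold change of the 8 endothelial markers was -0.03, like that of all tested genes. At an unadjusted p under 0.05, 1 of 8 tested endothelial markers was lower (*Cldn5*, a tight-junction protein), 4 of 6 skeletal markers and 3 of 10 epithelial markers (*Hopx*, *Pdpn* and *Scgb1a1*). Among all tested genes the share lower at that level was 7.82%. The part of these cells in the result was not tested.

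**Figure D1:**
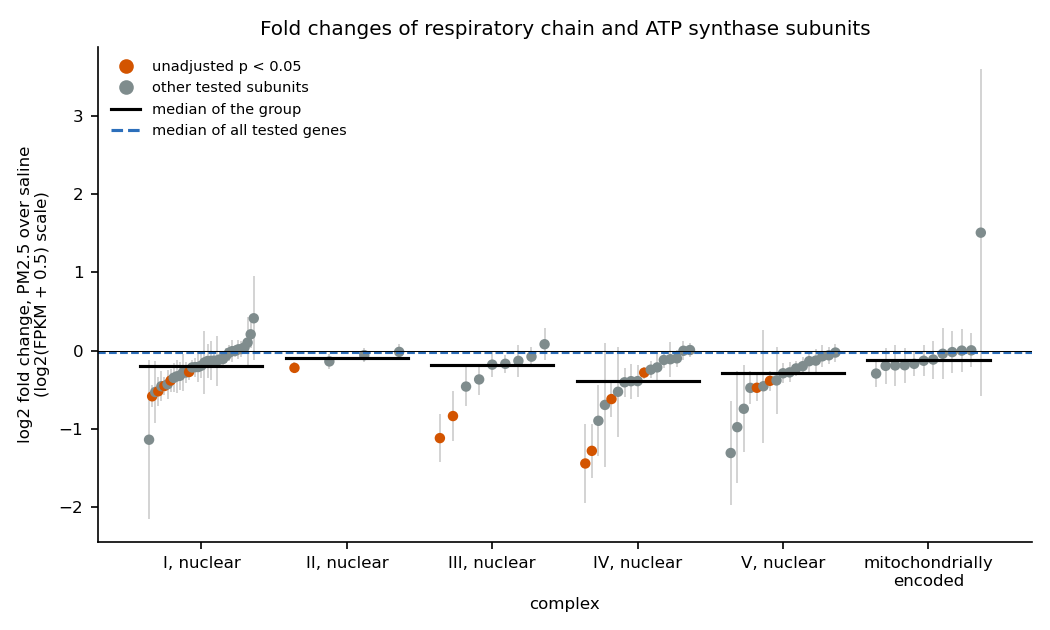
Log2 fold change (y axis, PM2.5 over saline on the log2(FPKM + 0.5) scale) of the 94 tested subunits, grouped by complex on the x axis; points are subunits in order of fold change, grey bars are 1 standard error, orange points have an unadjusted p under 0.05, and black lines are group medians. The medians run from -0.10 in complex II to -0.39 in complex IV, all below the dashed median of all tested genes at -0.03, and the single point far above 0 is *mt-Nd1*.

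The number of low-p subunits rested on single libraries. Without PM2.5 replicate 4 it was 6 of 94 (6.38%, against 6.59% of all genes in the same fit), and without saline replicate 2 or PM2.5 replicate 3 it was 8 (8.51%, against 6.02% and 6.44%). Without saline replicate 4 it was 24 (25.5%, against 7.18%), and without PM2.5 replicate 2 it was 20 (21.3%, against 7.74%). The median fold change was negative in each of these fits, between -0.30 and -0.15 on the log2 scale. No subunit passed the adjusted threshold under any of the 17 other settings, where the lowest adjusted p was 0.068.

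Subunits shared an order of libraries within each group. Of the 82 tested nuclear subunits, 55 (67.1%) were lowest in replicate 4 among PM2.5 libraries, against 35.4% of all tested genes. Among saline libraries 54 (65.9%) were likewise lowest in replicate 4, against 37.0% of all tested genes. The highest PM2.5 value was in replicate 2 for 53 (64.6%, against 34.6%), and the highest saline value was in replicate 2 for 55 (67.1%, against 43.2%). The labels do not say that equal numbers mark a shared day or batch. Summed nuclear subunits reached 1873, 1708 and 1568 FPKM in PM2.5 replicates 2, 3 and 4 and 2289, 2068 and 1832 FPKM in saline replicates 2, 3 and 4. The sums thus overlapped, with PM2.5 replicate 2 above saline replicate 4.

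Promoters of the nuclear subunits are shown because many, but not all, of these genes share a few short sequence elements. These are the elements bound by NRF1, by ETS-family factors such as GABP and by YY1. RefSeq promoter windows of build GRCm38.p6, running from 250 bases before to 50 after a gene's start, were found for 65 members, in 70 windows. The 5 stretches below run from 170 bases before the start to 30 after it, 5′ to 3′ on the gene's strand. They belong to low-p subunits of complexes I, II and IV, and each holds a match. The windows of *Ndufb2*, *Ndufb4* and *Cox5b*, low-p subunits of the same complexes, held none of these motifs and are not shown. The window of *Ndufs6*, another of them, held a YY1-type match and is not shown either, and *Cox6c* had no window. Among low-p subunits of complexes III and V, *Uqcrc1* and *Atp5j2* had windows with a match that are likewise not shown. Capitals mark matches, on either strand, to GCATGCGC (NRF1-type), CCGGAAG (ETS-type) and AANATGGC (YY1-type), and 2 overlapping matches run together in *Cox6a1*. *Ndufa7* had 2 windows, and the one not shown held no match. The RefSeq starts used for *Ndufa7*, *Sdhb* and *Cox6a1* lie inside the Ensembl spans of these genes. Marked letters there, among them the match in *Ndufa7*, can thus lie within a transcript rather than before it.
Cox6a1, chr5:115348929-115349128, minus strand: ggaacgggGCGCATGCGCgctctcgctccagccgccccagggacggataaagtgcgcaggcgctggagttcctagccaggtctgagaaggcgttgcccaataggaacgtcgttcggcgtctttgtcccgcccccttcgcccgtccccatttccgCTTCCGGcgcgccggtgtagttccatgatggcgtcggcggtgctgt
Cox8a, chr19:7217587-7217786, minus strand: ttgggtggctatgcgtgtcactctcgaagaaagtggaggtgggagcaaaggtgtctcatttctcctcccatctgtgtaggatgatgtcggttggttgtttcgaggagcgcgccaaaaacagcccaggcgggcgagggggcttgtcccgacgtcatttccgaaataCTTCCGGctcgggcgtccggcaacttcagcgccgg
Ndufa6, chr15:82354262-82354461, minus strand: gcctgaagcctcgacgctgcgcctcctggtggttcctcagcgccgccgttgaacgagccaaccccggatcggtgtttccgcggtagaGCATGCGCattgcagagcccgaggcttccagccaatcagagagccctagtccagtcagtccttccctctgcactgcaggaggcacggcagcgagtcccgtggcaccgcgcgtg
Ndufa7, chr17:33824475-33824674, plus strand: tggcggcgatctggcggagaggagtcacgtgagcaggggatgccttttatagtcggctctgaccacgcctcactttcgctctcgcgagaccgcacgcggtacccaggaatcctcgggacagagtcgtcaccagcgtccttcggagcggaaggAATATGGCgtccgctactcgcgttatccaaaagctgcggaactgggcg
Sdhb, chr4:140961101-140961300, plus strand: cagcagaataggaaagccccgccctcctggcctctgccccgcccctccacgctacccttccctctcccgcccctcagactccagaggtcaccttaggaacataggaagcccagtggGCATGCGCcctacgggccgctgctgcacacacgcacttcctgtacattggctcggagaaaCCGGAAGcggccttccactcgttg

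The NRF1-type letters occurred in 10 of the 70 subunit windows (14.3%), against 2.71% of all 32851 promoter windows of the same length. The ETS-type letters were found in 16 (22.9%, against 8.86%) and the YY1-type letters in another count of 16 (22.9%, against 6.05%). The YY1-type match lay after the RefSeq start in *Atp5b*, *Atp5j2*, *Cox7b*, *Ndufa3*, *Ndufa9*, *Ndufb8*, *Ndufc1*, *Ndufs4*, *Ndufs6* and *Ndufs7*. Such matches lie within the transcript, and the other YY1-type matches lay before the start. At least 1 of these motifs stood in 35 windows (50.0%, against 16.1%). A GC box, GGGCGG, was about as common in subunit windows (37.1%) as in all windows (35.7%). Spellings were picked after several had been counted in these windows, so the shares are descriptions. The 35 tested subunits with any of the first 3 motifs had a median log2 fold change of -0.22, and the 30 with a window but none of them had -0.21.

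Complex I, the NADH dehydrogenase, had 35 nuclear subunits tested, and the log2 fold change was below 0 for 29 (82.9%, against 56.0% of all tested genes). The median was -0.19. At an unadjusted p under 0.05, 5 were lower (14.3%, against 7.82% of all tested genes), all of them accessory subunits, which surround the catalytic core. The 7 nuclear core subunits, which carry the electron path, had a median of -0.13, and 0 of 7 had an unadjusted p under 0.05 (against 7.82% lower among all tested genes). Core and accessory subunits were not tested against each other.

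*Ndufa7* (chr17:33824591-33838316), an accessory subunit of the matrix arm, had 6.34, 9.00 and 7.96 FPKM in PM2.5 lungs, against 12.3, 12.2 and 10.8 FPKM in saline lungs. The groups did not overlap. Its log2 fold change was -0.58 ± 0.14 (SE; limma, unadjusted p = 0.006, adjusted p = 0.257). *Ndufs6*, a zinc-binding accessory subunit, had 12.7, 11.6 and 10.4 FPKM in PM2.5 lungs and 17.6, 16.03 and 14.3 FPKM in saline lungs. Again every PM2.5 value was below every saline value, with a log2 fold change of -0.45 ± 0.12 and an adjusted p of 0.268.

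*Ndufb4*, an accessory subunit of the membrane arm, was even among PM2.5 lungs at 8.002, 7.71 and 8.03 FPKM, against 10.8, 9.03 and 9.27 FPKM in saline lungs. The groups were separate, and the log2 fold change was -0.27 ± 0.10 (adjusted p = 0.378). *Ndufa6*, a matrix-arm accessory subunit of the LYR-motif family, had 13.0, 11.2 and 9.01 FPKM in PM2.5 lungs and 18.6, 16.9 and 12.8 FPKM in saline lungs. PM2.5 replicate 2 was just above saline replicate 4 here, and the log2 fold change was -0.52 ± 0.19 (adjusted p = 0.382). The remaining low-p member, *Ndufb2*, overlaps *Braf* on the opposite strand, and its reads cannot be assigned by strand in these libraries. It had 4.92, 4.24 and 4.73 FPKM in PM2.5 lungs and 7.15, 6.59 and 4.98 FPKM in saline lungs, so the groups all but touched.

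The value of a complex I core subunit turned on a single library. *Ndufs8*, an iron-sulphur core subunit, had 6.13, 0.0824 and 6.82 FPKM in PM2.5 lungs and 9.83, 5.83 and 4.12 FPKM in saline lungs. The value in PM2.5 replicate 3 is below the floor of 3 fragments on a 1 kb transcript. *Ndufs8* was named after its values were seen, and its log2 fold change was 0.055 without that library, against -1.14 with all libraries. *Ndufa5*, the lowest of the nuclear complex I subunits, had 2.09, 1.42 and 2.15 FPKM in PM2.5 lungs and 2.75, 3.45 and 0.903 FPKM in saline lungs, with full overlap.

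Complex II, succinate dehydrogenase, had all 4 subunits tested, and the largest difference was in *Sdhb*, its iron-sulphur subunit (chr4:140961203-140979193). *Sdhb* had 29.9, 28.7 and 27.6 FPKM in PM2.5 lungs, against 32.8, 35.0 and 33.0 FPKM in saline lungs. The groups did not overlap, and the spread within each was small. The log2 fold change was -0.22 ± 0.07 (SE; limma, unadjusted p = 0.020, adjusted p = 0.345).

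The membrane anchor *Sdhc* had 13.8, 15.6 and 12.6 FPKM in PM2.5 lungs and 14.8, 16.1 and 15.5 FPKM in saline lungs, which overlapped. *Sdha*, the flavin-carrying catalytic subunit, had 39.1, 32.7 and 36.8 FPKM in PM2.5 lungs and 38.5, 36.1 and 38.2 FPKM in saline lungs. *Sdhd*, the other anchor, had 23.3, 19.2 and 20.5 FPKM in PM2.5 lungs and 21.8, 22.3 and 19.5 FPKM in saline lungs. Neither *Sdha* nor *Sdhd* separated the groups, with 95% intervals of the log2 fold change from -0.28 to 0.16 and from -0.27 to 0.23.

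Complex III, which hands electrons from coenzyme Q to cytochrome c, had 9 nuclear subunits tested, with a median log2 fold change of -0.18. Of these, 8 were negative (88.9%, against 56.0% of all tested genes). *Uqcrq* (chr11:53427922-53430831), a small subunit of the membrane part, had 5.01, 5.94 and 3.42 FPKM in PM2.5 lungs, against 14.4, 12.3 and 6.97 FPKM in saline lungs. The groups were separate, although saline replicate 4 was nearer to the PM2.5 libraries than to the other saline libraries. The log2 fold change was -1.12 ± 0.31 (SE; limma, unadjusted p = 0.011, adjusted p = 0.297). Its main transcript, ENSMUST00000061326, had 4.23, 3.97 and 3.42 FPKM in PM2.5 lungs and 9.66, 10.4 and 6.31 FPKM in saline lungs (adjusted p = 0.318 over transcripts).

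*Uqcrc1*, a core protein of the matrix face, had 26.6, 14.8 and 13.3 FPKM in PM2.5 lungs and 28.8, 43.9 and 24.6 FPKM in saline lungs. PM2.5 replicate 2 lay inside the saline range and the other PM2.5 libraries below it, and the log2 fold change was -0.84 ± 0.32 (adjusted p = 0.412). *Cyc1*, cytochrome c1, had 20.7, 10.8 and 15.3 FPKM in PM2.5 lungs and 24.3, 22.0 and 17.2 FPKM in saline lungs. *Uqcr10*, a small subunit, had 28.7, 28.9 and 25.4 FPKM in PM2.5 lungs and 48.1, 34.1 and 27.9 FPKM in saline lungs. Both overlapped, with adjusted p of 0.539 and 0.538.

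Complex IV, cytochrome c oxidase, had the lowest median log2 fold change of the 5 complexes among nuclear subunits, at -0.39 over 17 tested members. Of these, 16 were negative (94.1%, against 56.0% of all tested genes). Summed nuclear subunits of complex IV were 423, 429 and 366 FPKM in PM2.5 lungs and 594, 560 and 429 FPKM in saline lungs. PM2.5 replicate 3 and saline replicate 4 were almost equal, so the groups barely missed each other.

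*Cox6a1* (chr5:115345642-115348981), the widely expressed form of subunit 6a, had 19.1, 23.8 and 15.1 FPKM in PM2.5 lungs, against 63.4, 58.9 and 27.7 FPKM in saline lungs. All PM2.5 values lay below all saline values, with saline replicate 4 much nearer to the PM2.5 group than the other saline libraries. The log2 fold change was -1.28 ± 0.35 (SE; limma, unadjusted p = 0.010, adjusted p = 0.293). *Cox8a* (chr19:7215158-7217616), the widely expressed form of subunit 8, had 15.4, 16.2 and 11.8 FPKM in PM2.5 lungs and 50.7, 71.2 and 17.4 FPKM in saline lungs. Saline replicate 4 was again at the edge of the PM2.5 range, and the log2 fold change of -1.44 ± 0.51 had an adjusted p of 0.375.

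*Cox6c*, a subunit with no muscle form, was nearly constant in PM2.5 lungs at 35.2, 35.4 and 35.2 FPKM, against 44.7, 45.1 and 39.6 FPKM in saline lungs. The groups were separate, with a log2 fold change of -0.28 ± 0.08 (adjusted p = 0.294), and the gene overlaps *Vps13b* on the opposite strand. *Cox5b*, a zinc-binding subunit on the matrix side, had 6.16, 3.76 and 4.83 FPKM in PM2.5 lungs and 9.29, 8.21 and 5.94 FPKM in saline lungs. PM2.5 replicate 2 was above saline replicate 4, and the log2 fold change was -0.62 ± 0.23 (adjusted p = 0.385). *Cox7b*, a small membrane subunit, had 16.04, 18.9 and 18.5 FPKM in PM2.5 lungs and 23.5, 20.5 and 19.6 FPKM in saline lungs, without overlap (adjusted p = 0.459).

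**Figure D2:**
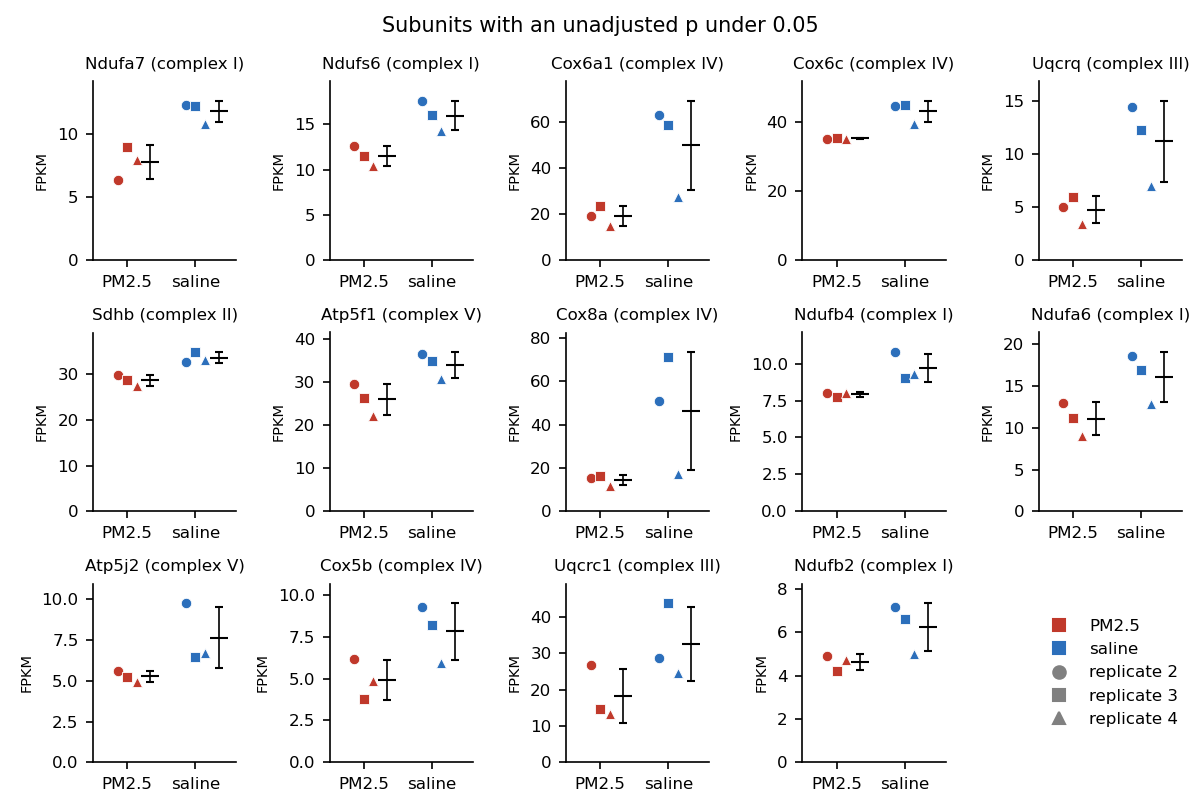
FPKM (y axis, from 0) of the 14 subunits with an unadjusted p under 0.05, in order of p; red points are PM2.5 libraries, blue points saline libraries, shapes give the replicate number, and black bars are the mean and SD of 3 libraries. *Cox6c* and *Sdhb* show tight groups a small step apart, while in *Cox6a1*, *Cox8a* and *Uqcrq* the wide gap comes from saline replicates 2 and 3, with saline replicate 4 near the PM2.5 points.

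The tissue forms of complex IV did not separate the groups. *Cox4i2*, the lung form of subunit 4, had 20.1, 23.2 and 24.6 FPKM in PM2.5 lungs and 25.6, 21.8 and 25.4 FPKM in saline lungs. The general form *Cox4i1* had 51.9, 70.6 and 44.3 FPKM in PM2.5 lungs and 86.5, 66.8 and 63.6 FPKM in saline lungs. The lung form made up 28.0%, 24.7% and 35.8% of the pair in PM2.5 lungs and 22.9%, 24.6% and 28.6% in saline lungs, which overlapped. *Cox4i1* overlaps *Emc8* on the opposite strand, and neither *Cox4i1* nor *Cox4i2* passed, with adjusted p of 0.526 and 0.764.

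The muscle forms *Cox6a2*, *Cox7a1* and *Cox8b* varied by library within both groups. *Cox6a2* had 3.40, 1.78 and 0.976 FPKM in PM2.5 lungs and 4.74, 5.54 and 2.19 FPKM in saline lungs. *Cox8b* had 5.66, 1.28 and 1.03 FPKM in PM2.5 lungs and 3.55, 4.39 and 2.04 FPKM in saline lungs. *Cox7a1* had 7.59, 0.577 and 2.39 FPKM in PM2.5 lungs and 5.49, 6.65 and 1.99 FPKM in saline lungs. In each, PM2.5 replicate 2 was the highest PM2.5 library and inside or above the saline range, and the adjusted p was 0.516 or higher. Without that library the log2 fold changes were -1.26 for *Cox6a2*, -1.43 for *Cox7a1* and -1.16 for *Cox8b*, against -0.90, -0.69 and -0.53 with it, and without PM2.5 replicate 3 that of *Cox7a1* was 0.028.

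The summed cardiac markers likewise set PM2.5 replicate 2 apart, at 306, 42.3 and 60.6 FPKM in PM2.5 libraries and 204, 433 and 207 FPKM in saline libraries. Of the 14 markers on the cardiac list 13 were found, 11 were tested, and no marker found was at 0 in all libraries. Adipocyte markers, of which all 11 were found, summed to 75.5, 8.52 and 6.75 FPKM in PM2.5 libraries and 29.2, 52.7 and 37.8 FPKM in saline libraries. Skeletal markers summed to 15.9, 4.003 and 4.89 FPKM in PM2.5 libraries and 16.7, 32.8 and 18.9 FPKM in saline libraries, with 11 of 13 markers found. The skeletal sums did not overlap, and the median log2 fold change of the 6 tested skeletal markers was -1.32. At an unadjusted p under 0.05, 4 of these 6 were lower (66.7%, against 7.82% of all tested genes). Without PM2.5 replicate 2 the medians were -2.42 for tested cardiac markers (against -1.70 with it), -1.70 for skeletal markers and -2.02 for adipocyte markers (against -1.08). The part of these tissues in the levels of the subunits was not tested.

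**Figure D3:**
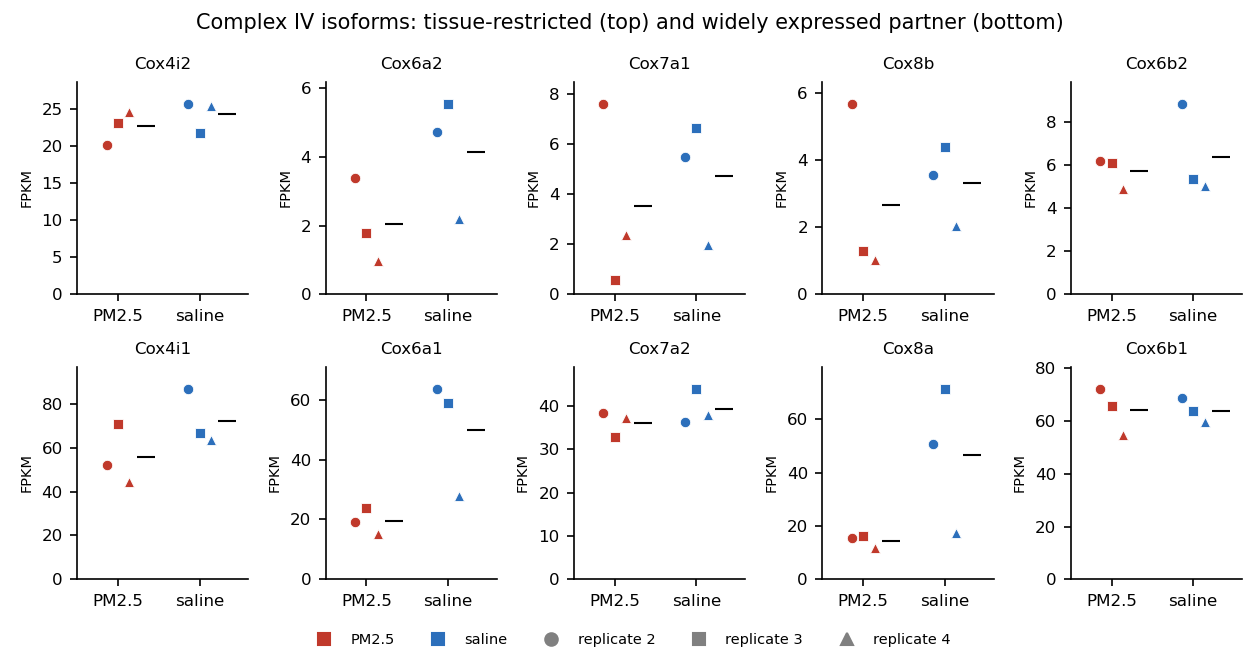
FPKM (y axis, from 0) of complex IV isoform pairs, with the tissue form above its widely expressed partner; red points are PM2.5 libraries, blue points saline libraries, shapes give the replicate number, and black dashes are means of 3 libraries. In *Cox6a2*, *Cox7a1* and *Cox8b* the circle of PM2.5 replicate 2 stands among or above the saline points, while in the partners *Cox6a1* and *Cox8a* it stays with the other PM2.5 libraries.

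Among the widely expressed partners, *Cox7a2* had 38.2, 32.8 and 37.1 FPKM in PM2.5 lungs and 36.2, 43.8 and 37.8 FPKM in saline lungs. *Cox6b1*, which clamps the oxidase dimer, had 72.1, 65.8 and 54.8 FPKM in PM2.5 lungs and 68.8, 63.7 and 59.6 FPKM in saline lungs. Both overlapped, and the 95% interval of the *Cox6b1* log2 fold change ran from -0.30 to 0.30. The testis form *Cox6b2* was present at 6.19, 6.10 and 4.91 FPKM in PM2.5 lungs and 8.82, 5.33 and 5.03 FPKM in saline lungs. The testis form *Cox8c* stood at 0 in every PM2.5 library and in saline replicates 3 and 4, and at 0.0735 FPKM in saline replicate 2.

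ATP synthase had 17 nuclear members tested, with a median log2 fold change of -0.29. Without rescaling, the log2 fold change was below 0 for all 17, against 56.0% of all tested genes. *Atp5f1*, subunit b of the stator stalk, had 29.5, 26.3 and 22.2 FPKM in PM2.5 lungs, against 36.5, 34.9 and 30.6 FPKM in saline lungs. The groups did not overlap, and the log2 fold change was -0.39 ± 0.13 (SE; limma, unadjusted p = 0.023, adjusted p = 0.36). *Atp5f1* overlaps *Wdr77* on the opposite strand. *Atp5j2*, subunit f of the membrane part, had 5.59, 5.25 and 4.94 FPKM in PM2.5 lungs and 9.77, 6.43 and 6.69 FPKM in saline lungs. Again the groups were separate, with a log2 fold change of -0.48 ± 0.17 (adjusted p = 0.382).

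*Atp5g3*, a gene for subunit c of the rotating ring, had 44.5, 37.4 and 32.6 FPKM in PM2.5 lungs and 48.9, 46.5 and 43.9 FPKM in saline lungs. Only PM2.5 replicate 2 entered the saline range (adjusted p = 0.456). *Atp5j*, coupling factor 6 of the stalk, had 30.5, 26.0 and 24.8 FPKM in PM2.5 lungs and 30.1, 33.1 and 32.0 FPKM in saline lungs, and overlaps *Gabpa*, which encodes a GABP subunit, on the opposite strand. *Atp5k*, subunit e at the dimer interface, was low throughout, with 1.65, 1.15 and 0.916 FPKM in PM2.5 lungs and 1.84, 1.58 and 2.29 FPKM in saline lungs. Both overlapped between groups, with adjusted p of 0.459 and 0.462.

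*Atp5s*, coupling factor B, was listed at 0 in PM2.5 replicates 2 and 3 and had 1.77 FPKM in replicate 4, against 0.841, 1.604 and 2.56 FPKM in saline lungs. A value of 0 in these files can be a failed estimate, and the adjusted p was 0.519. *Atp5g1*, another gene for subunit c, had 10.8, 7.09 and 1.11 FPKM in PM2.5 lungs and 8.70, 11.6 and 8.97 FPKM in saline lungs. It was named after its values were seen, since PM2.5 replicate 4 alone was low.

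Some ATP synthase symbols held transcripts that took turns between libraries. The main transcript of *Atp5d*, the delta subunit of the central stalk, ENSMUST00000003156, had 41.3, 40.3 and 6.36 FPKM in PM2.5 lungs and 56.5, 1.35 and 44.4 FPKM in saline lungs. ENSMUST00000105367 of the same gene had 0.060, 0 and 7.77 FPKM in PM2.5 lungs and 0.058, 20.3 and 0 FPKM in saline lungs. It was thus high in the same libraries, PM2.5 replicate 4 and saline replicate 3, in which the main transcript was low. *Atp5d* was chosen after its values were seen.

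Of the 333 member transcripts 240 were tested, and 0 passed the adjusted threshold, against 0.152% of all transcripts. At an unadjusted p under 0.05, 19 (7.92%) were lower with PM2.5, against 4.89% of all tested transcripts, and 2 (0.833%) were higher, against 4.56%. The lowest adjusted p, 0.182, belonged to ENSMUST00000018914 of *Atp5g3*, which was picked out for that. It had 16.6, 16.3 and 16.5 FPKM in PM2.5 lungs and 23.6, 24.9 and 25.4 FPKM in saline lungs. Both groups were tight and well apart, with a log2 fold change of -0.57. Another *Atp5g3* transcript of nearly the same span, ENSMUST00000111996, overlapped between groups. It had 22.0, 17.2 and 13.3 FPKM in PM2.5 lungs and 18.6, 17.6 and 13.6 FPKM in saline lungs. How reads were divided between these transcripts is not given, and the summed gene overlapped too. The 2 higher transcripts were ENSMUST00000185466 of *Ndufa10*, an accessory subunit of complex I, and ENSMUST00000077338 of *Atp5sl*. The *Ndufa10* transcript had 0.906, 2.12 and 3.71 FPKM in PM2.5 lungs and 0.588, 0.381 and 0.3998 FPKM in saline lungs, while the summed gene had a log2 fold change of 0.02.

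The mitochondrially encoded subunits showed no separation between groups and varied by library instead. Their summed FPKM was 5047, 2985 and 3814 in PM2.5 lungs and 3988, 4993 and 3898 in saline lungs. Of the 12 tested, all were highest in PM2.5 replicate 2 and lowest in PM2.5 replicate 3 among PM2.5 libraries, and 11 were highest in saline replicate 3 among saline libraries. They held 72.9%, 63.6% and 70.9% of all subunit FPKM in PM2.5 lungs and 63.5%, 70.7% and 68.0% in saline lungs. Their median log2 fold change was -0.12, and single libraries moved it in both directions. Leaving out PM2.5 replicate 2 made it -0.33, and leaving out PM2.5 replicate 3 made it 0.095. It was -0.19 when saline replicate 4 was left out and -0.02 when saline replicate 3 was. PM2.5 replicates 2 and 3 had the highest and lowest PM2.5 sums of these subunits and of the heart-muscle markers, and saline replicate 3 the highest saline sum of both. The lowest saline sum was in replicate 4 for the subunits and in replicate 2 for the markers. A shared order among 3 libraries can arise by chance, and the part of heart muscle in these levels was not tested.

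*mt-Co1*, the catalytic subunit of complex IV with the heme and copper centres, was the most abundant member, with 1964, 1242 and 1513 FPKM in PM2.5 lungs and 1643, 2086 and 1617 FPKM in saline lungs. *mt-Co2*, which takes electrons from cytochrome c, had 377, 271 and 297 FPKM in PM2.5 lungs and 365, 383 and 309 FPKM in saline lungs. *mt-Co3*, the remaining core subunit, had 700 FPKM in PM2.5 replicate 2, 428 and 561 FPKM in PM2.5 replicates 3 and 4, and 555, 759 and 590 FPKM in saline lungs. All these ranges overlapped, with adjusted p from 0.723 to 0.781. *mt-Cytb*, the quinone-binding core of complex III, had 579, 362 and 453 FPKM in PM2.5 lungs and 488, 562 and 454 FPKM in saline lungs.

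Complex I subunits of mitochondrial DNA form the proton-pumping membrane arm. *mt-Nd2* had 251, 107 and 166 FPKM in PM2.5 lungs and 149, 212 and 155 FPKM in saline lungs. *mt-Nd5* had 244, 121 and 174 FPKM in PM2.5 lungs and 183, 232 and 179 FPKM in saline lungs. The PM2.5 range enclosed the saline range in *mt-Nd2* and *mt-Nd5* alike. *mt-Nd4* had 276, 142 and 205 FPKM in PM2.5 lungs and 181, 249 and 186 FPKM in saline lungs. *mt-Nd4l*, which overlaps *mt-Nd4* by a few bases, had 212, 119 and 162 FPKM in PM2.5 lungs and 162, 175 and 144 FPKM in saline lungs. *mt-Nd3* was lower in level and had the lowest p of the set, with 38.0, 27.7 and 31.8 FPKM in PM2.5 lungs and 40.8, 46.9 and 32.6 FPKM in saline lungs (log2 fold change -0.29 ± 0.17, adjusted p = 0.565).

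The ATP synthase genes *mt-Atp8* and *mt-Atp6* overlap on the same strand, so their reads are shared. *mt-Atp8* had 220, 108 and 167 FPKM in PM2.5 lungs and 141, 187 and 151 FPKM in saline lungs. *mt-Atp6*, the proton channel, had 105, 56.5 and 83.7 FPKM in PM2.5 lungs and 80.0, 102 and 77.5 FPKM in saline lungs. For both, the lowest and the highest library were PM2.5 libraries.

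*mt-Nd1* and *mt-Nd6* stood far below the other genes of mitochondrial DNA in most libraries. *mt-Nd1* had 80.4, 0.0237 and 0.0278 FPKM in PM2.5 lungs and 0.061, 0.0711 and 2.55 FPKM in saline lungs, so only PM2.5 replicate 2 exceeded 2.55 FPKM. The ribosomal RNA *mt-Rnr2* beside it was likewise 176 FPKM in PM2.5 replicate 2, 5.42 and 4.93 FPKM in the other PM2.5 lungs, and 5.30, 4.04 and 13.8 FPKM in saline lungs. A noncoding transcript in the same table, NONMMUT071578.2 (MT:1149-3703, plus strand), spans nearly all of *mt-Nd1* (MT:2751-3707) at 2.22, 4.09 and 2.98 FPKM in PM2.5 lungs and 5.398, 6.28 and 1.48 FPKM in saline lungs.

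*mt-Nd6*, the coding gene on the minus strand (MT:13552-14070), had 0.0924, 0.109 and 0.102 FPKM in PM2.5 lungs and 0.112, 0.0874 and 0.0918 FPKM in saline lungs. NONMMUT071600.2 (MT:11720-14070, minus strand) contains the whole gene, and had 93.9, 69.0 and 53.2 FPKM in PM2.5 lungs and 86.6, 83.0 and 73.6 FPKM in saline lungs. It also spans all of *mt-Nd5* (MT:11742-13565) on the opposite strand. The libraries do not mark strand, so its level cannot be assigned to *mt-Nd6*. How the authors' counting divided reads between such overlapping transcripts is not given in the sources used here, so the low *mt-Nd1* and *mt-Nd6* values are not read as low expression. Without *mt-Nd1* the summed mitochondrially encoded level was 4966, 2985 and 3814 FPKM in PM2.5 lungs and 3988, 4993 and 3895 FPKM in saline lungs.

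**Figure D4:**
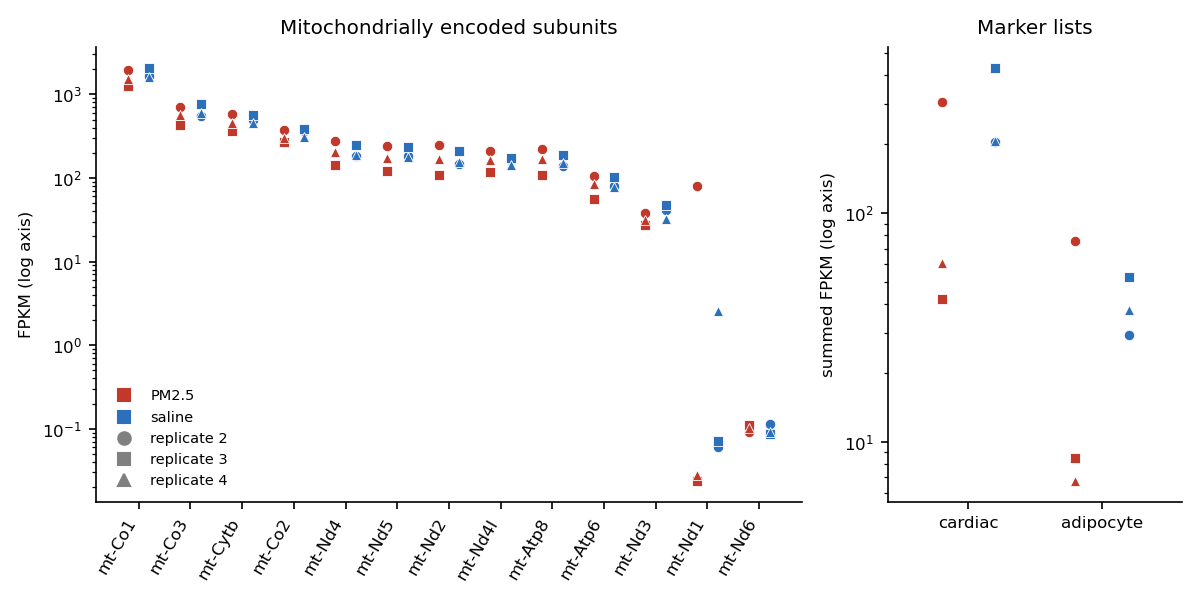
FPKM (log y axis) of the 13 mitochondrially encoded subunits in order of mean level on the left, and summed FPKM (log y axis) of cardiac and adipocyte marker lists on the right; red points are PM2.5 libraries, blue points saline libraries, and shapes give the replicate number. The PM2.5 circle (replicate 2) is the top PM2.5 point in the 12 tested genes and both marker lists, and *mt-Nd1* spans from 0.0237 to 80.4 FPKM.

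The other mitochondrial gene lists also held no gene past the adjusted threshold. Of 76 mitochondrial ribosomal proteins, which translate the mitochondrially encoded subunits, 62 had a log2 fold change below 0 (81.6%, against 56.0% of all tested genes), and the median was -0.14. At an unadjusted p under 0.05, 13 were lower (17.1%, against 7.82%) and 1 was higher (against 3.66% of all tested genes). *Mrps28*, of the small ribosomal subunit, had 3.60, 3.58 and 2.73 FPKM in PM2.5 lungs and 7.50, 6.27 and 6.10 FPKM in saline lungs (log2 fold change -0.91 ± 0.15, adjusted p = 0.136). The groups were separate, as they were for *Mrpl57* and *Mrpl17* of the large subunit, with log2 fold changes of -0.59 and -0.40 and adjusted p of 0.190 and 0.303.

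The factors that assemble the complexes had medians a little below 0. The 14 tested complex I assembly factors had a median of -0.10 on the log2 scale, and *Ndufaf3* and *Foxred1* were lower at an unadjusted p under 0.05 (14.3%, against 7.82% of all tested genes). In 4 of the 14 (28.6%, against 11.8% of all tested genes) the PM2.5 values lay wholly below the saline values. The 35 factors for complexes II to V had a median of -0.13, with 3 lower (8.57%, about the share of all tested genes). *Cox18*, which inserts mt-Co2 protein into the inner membrane, had 5.21, 5.01 and 4.60 FPKM in PM2.5 lungs and 6.71, 7.10 and 7.97 FPKM in saline lungs (adjusted p = 0.209). All 3 PM2.5 values were below the saline values.

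Genes of coenzyme Q synthesis and electron carriers centred on -0.02 on the log2 scale over 14 tested. At an unadjusted p under 0.05, *Pdss2* and *Coq7* were lower (14.3%, against 7.82% of all tested genes). *Coq9* was higher at that level, against 3.66% of all tested genes. In the tricarboxylic acid cycle and pyruvate dehydrogenase, 15 of 17 were negative (88.2%, against 56.0% of all tested genes), with a median of -0.10, and 2 were lower at an unadjusted p under 0.05 (11.8%, against 7.82%). *Idh2*, the NADP-dependent mitochondrial isocitrate dehydrogenase, had 22.9, 13.9 and 11.6 FPKM in PM2.5 lungs and 35.0, 31.2 and 23.0 FPKM in saline lungs (adjusted p = 0.333). Its groups all but met, at PM2.5 replicate 2 and saline replicate 4. *Pdhb*, of pyruvate dehydrogenase, had 5.85, 17.4 and 6.26 FPKM in PM2.5 lungs and 20.1, 22.1 and 19.0 FPKM in saline lungs (adjusted p = 0.370). PM2.5 replicate 3 lay close to the saline libraries, and the other PM2.5 libraries far below.

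*Slc25a3*, the phosphate carrier that feeds ATP synthase, had 22.8, 23.7 and 31.9 FPKM in PM2.5 lungs and 37.0, 64.7 and 50.7 FPKM in saline lungs. The groups were separate, with a log2 fold change of -0.92 ± 0.23 (adjusted p = 0.263). It was 1 of 14 carriers and pores with an unadjusted p under 0.05 (7.14%), about the share of all tested genes.

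Regulators of mitochondrial gene expression centred on -0.03 on the log2 scale over 19 tested. At an unadjusted p under 0.05, 2 were lower (10.5%, against 7.82% of all tested genes). *Esrra*, a nuclear receptor that activates many respiratory genes, had 8.08, 5.96 and 6.38 FPKM in PM2.5 lungs, against 11.7, 10.8 and 10.2 FPKM in saline lungs. The groups did not overlap, and the log2 fold change was -0.65 ± 0.13 (SE; limma, unadjusted p = 0.003, adjusted p = 0.209). The other was *Mterf1a*, a mitochondrial transcription factor, with a log2 fold change of -0.50 (adjusted p = 0.352).

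**Figure D5:**
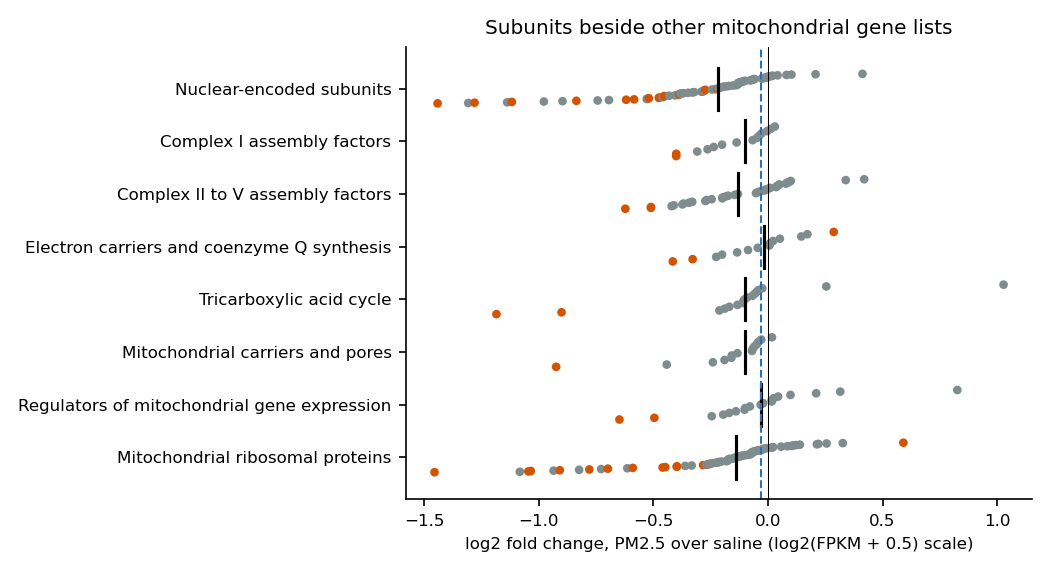
Log2 fold change (x axis, PM2.5 over saline on the log2(FPKM + 0.5) scale) of the 82 tested nuclear subunits and of 7 other mitochondrial gene lists, listed down the page; points are genes, orange points have an unadjusted p under 0.05, black lines are list medians, and the dashed line is the median of all tested genes. The subunits have the lowest median, at -0.22, and coenzyme Q and carrier genes the highest, at -0.02.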

How the data were processed

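The authors deposited a single value per transcript and library, with no unit named in the header. The deposited values were read as FPKM from their column sums and the steps of low values. The submitters' processing notes name HISAT2, bcl2fastq and, per those notes, genome build mm10. The sources used here give no versions, quantifier or annotation. The NEBNext Ultra kit named in the labels' protocols does not mark strand. Depth is unknown beyond the estimate, for which 37.9% to 41.3% of low values lay within 0.05 of a whole step. MERGE transcripts, 17.6% to 20.6% of the FPKM of a library, could not be assigned to genes.

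FPKM of Ensembl transcripts were summed per symbol. Genes averaging at least 0.5 FPKM over all libraries were tested on the log2(FPKM + 0.5) scale in limma 3.58.1 under R 4.3.3, and transcripts in a fit of their own (moderation with a mean trend, 2-sided, Benjamini-Hochberg over all features, threshold 0.05). Fold changes on this scale understate those of low genes. An exact permutation test of 3 against 3 cannot go below 0.1 and was not used. The fit was tested on simulated data. Motifs were counted in RefSeq promoter windows.

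The members, gene lists, marker lists and tests were chosen with earlier results of these data known. Genes named were the 4 lowest p per complex, the mitochondrially encoded subunits, the complex IV isoforms, the 3 highest and 3 lowest members, members with a library at 0, and up to 3 of each other list. Alternatives were other pseudocounts, filters, scalings, moderation, weights, a replicate block, locus sums and each library left out.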

Additional observations from a re-analysis of the deposited data

How the results depend on the processing

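No subunit passed the adjusted threshold under any of the 17 alternatives, and the 14 subunits lower at an unadjusted p under 0.05 kept their sign in all of them. Of all 94 tested subunits, 37 turned sign in at least 1 alternative and 57 in none. Across all genes the count of calls, 14 as reported, was 9 when genes had to average 2 FPKM, and ran from 5 to 26 when each library was left out in turn. The subunits lower at an unadjusted p under 0.05, 14 as reported, ran from 6 to 24 and the higher ones from 0 to 1 over the same leave-outs. The median log2 fold change of the mitochondrially encoded subunits ran from -0.33 to 0.095, with the positive value without PM2.5 replicate 3. Leaving out 4 symbols that are no subunit or rest on 1 library, chosen after seeing the data, left 14 lower and a median of -0.20. *Pdhb*, subunit beta of pyruvate dehydrogenase, passed only without PM2.5 replicate 3 (adjusted p = 0.0322, limma).

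Between libraries with equal replicate numbers, deviations from the group means over all tested genes correlated at -0.03, -0.03 and 0.05. In each group only replicate 4 correlated best with its own number, and replicates 2 and 3 correlated best with another. With 3 libraries per group, these values cannot show whether the numbers mark a shared day or batch. Summed nuclear subunits fell from replicate 2 to replicate 4 in both groups. With the number as a replicate block, 1 gene and 5 transcripts passed, against 14 genes and 92 transcripts without it. In that block fit 19 subunits (20.2%) were lower at an unadjusted p under 0.05, against 7.17% of all tested genes. The cause of these differences was not tested. The median of each complex's nuclear subunits was negative under every alternative run, nearest to 0 in complex II after rescaling to the nuclear-encoded sum. No counts are given, so counting error cannot be separated from other spread.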
